A study of Homo sapiens with 12 samples.

Results

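The genes described here are the ligand and receptors of the neuropeptide Y system and the granin family of secretory granule proteins, read in SH-SY5Y cells with and without FMR1. They are 10 of the 59087 genes in the count table: NPY, NPY1R, NPY2R, NPY5R, SCG2, SCG3, SCG5, CHGA, CHGB and VGF. The set was listed by symbol, and it was picked because NPY, SCG5 and NPY2R differed strongly from wild type in knockout lines 1 and 2 of these same data. The values in those lines, and in the knockout libraries pooled, are therefore a description and carry no test. Of the 10 genes, 8 passed the low-count filter, and NPY1R and NPY5R did not.

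SH-SY5Y is a human neuroblastoma cell line of the sympathetic lineage that makes noradrenergic enzymes and dense-core vesicles. Poly(A) RNA of 12 cultures was sequenced after 2 weeks in a medium for isotope labelling of proteins (SILAC), which was heavy, with carbon-13 and nitrogen-15 forms of lysine and arginine, or light, with the common forms. Each of the 4 groups (wild type heavy, wild type light, FMR1 knockout heavy, FMR1 knockout light) held 3 libraries, and all cultures shared one base medium with dialysed serum. The product of FMR1 is FMRP, which binds RNA, regulates its translation and is lost in fragile X syndrome. The 6 knockout libraries stand for 3 independently made lines, with 1 heavy and 1 light library each. Heavy and light libraries with the same number were taken as 1 line, an assignment that rests on the number in the labels. In log2 CPM the heavy library of line 1 correlated at 0.983 with its light partner and 0.990 with the light library of line 3. A line carries the loss of FMR1 together with whatever arose while the line was made, and these cannot be told apart within a line. The wild-type replicates carry only a number, so p-values measure the spread between these libraries, which may be technical.

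Neuropeptide Y is a peptide that sympathetic neurons store with noradrenaline and release from large dense-core vesicles. It acts on the G protein-coupled receptors Y1, Y2 and Y5, the products of NPY1R, NPY2R and NPY5R, and Y2 is known as a presynaptic receptor that restrains further release. Granins are acidic, calcium-binding proteins that aggregate in the trans-Golgi network, take part in forming dense-core granules and are cut into smaller peptides. SCG5 (7B2) stands apart from the other granins as the chaperone and inhibitor of the prohormone convertase PCSK2.

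Libraries held 25935152 to 40257027 counts assigned to genes, and levels are given as CPM, counts set against the library total, after scaling by TMM factors of 0.985 to 1.03. FMR1 averaged 37.8 ± 2.16 CPM (SD, n = 6) in wild type and stood at 22.4 (heavy) and 11.4 CPM (light) in line 1, 12.7 and 11.5 in line 2, with 7.15 and 9.06 in line 3. The targeted gene was thus lower in every knockout library, and least so in the heavy library of line 1. Of 13 markers of sympathetic neuroblasts, 12 were at 1 CPM or more in wild type, all but TH at 0.616 CPM. The summed level of the 13 was 7903 to 8450 CPM in wild type and 6570 to 8037 in the knockout libraries. The sum hides opposite shifts of single markers. From wild type to line 2, for example, DBH went from 2254 to 945 CPM, CHRNA3 from 183 to 447 and ELAVL4 from 240 to 498. Markers of Schwann or glial cells summed to 7.89 to 9.35 CPM in wild type and 11.6 to 36.8 in the knockout libraries, with 3 of 9 (SOX10, GFAP and FABP7) at 0. Fibroblast or mesenchymal markers summed to 280.4 to 304.5 CPM in wild type and 176.6 to 244.0 in the knockout libraries, with 3 of 10 (DCN, FAP and PRRX1) at 0. The part of these shifts in the results was not tested.

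The sequences before the start sites are shown for the genes on which the results turn. These are NPY, SCG5 and NPY2R, which differed most between the lines, and CHGA and VGF, the granin genes that were lower in line 2. Each is the 250 bases before the RefSeq transcript start on GRCh38.p14, written 5′ to 3′ on the strand of the gene, with motif matches in capitals. RefSeq entries were found for 8 of the 10 genes, all but SCG2 and CHGB. The motifs searched on both strands were the cAMP response element TGACGTCA, the AP-1 site TGANTCA, the TATA box TATAAA, the GC box GGGCGG and the E-box CAGCTG, and no match overlapped another.
NPY, chr7:24283940-24284189, plus strand: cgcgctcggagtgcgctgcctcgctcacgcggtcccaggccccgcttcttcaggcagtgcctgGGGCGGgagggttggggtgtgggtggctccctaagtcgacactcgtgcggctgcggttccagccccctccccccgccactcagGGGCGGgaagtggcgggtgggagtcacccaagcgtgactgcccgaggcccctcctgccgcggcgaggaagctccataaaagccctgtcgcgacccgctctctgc
SCG5, chr15:32641460-32641709, plus strand: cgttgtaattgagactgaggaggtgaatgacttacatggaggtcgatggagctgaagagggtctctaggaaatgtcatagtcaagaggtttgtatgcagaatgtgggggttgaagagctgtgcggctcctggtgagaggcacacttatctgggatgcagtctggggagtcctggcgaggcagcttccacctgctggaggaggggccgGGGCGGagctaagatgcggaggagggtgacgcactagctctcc
NPY2R, chr4:155208386-155208635, plus strand: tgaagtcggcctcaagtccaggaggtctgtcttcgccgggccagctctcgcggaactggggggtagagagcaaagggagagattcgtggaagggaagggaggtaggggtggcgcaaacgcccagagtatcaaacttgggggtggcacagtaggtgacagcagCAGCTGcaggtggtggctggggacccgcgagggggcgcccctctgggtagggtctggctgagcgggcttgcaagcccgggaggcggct
CHGA, chr14:92922900-92923149, plus strand: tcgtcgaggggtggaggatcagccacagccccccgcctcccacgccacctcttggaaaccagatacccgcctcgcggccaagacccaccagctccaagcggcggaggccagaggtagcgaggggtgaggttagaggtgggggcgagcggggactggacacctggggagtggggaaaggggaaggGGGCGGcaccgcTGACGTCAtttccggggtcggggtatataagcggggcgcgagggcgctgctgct
VGF, chr7:101165570-101165819, minus strand: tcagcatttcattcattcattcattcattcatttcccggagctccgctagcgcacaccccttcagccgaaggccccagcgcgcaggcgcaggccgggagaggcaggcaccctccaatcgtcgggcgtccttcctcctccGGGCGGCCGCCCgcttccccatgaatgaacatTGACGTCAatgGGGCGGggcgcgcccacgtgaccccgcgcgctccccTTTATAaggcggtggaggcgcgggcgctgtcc

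The NPY window held 2 GC boxes, whose first bases lie at -187 and -104 from the start, and had a GC content of 71.6%. The SCG5 window held 1 GC box, at -43, and had the lowest GC content of the 5 printed, 56.4%. The NPY2R window held 1 E-box, at -88. Both CHGA and VGF carried the palindromic cAMP response element, at -54 and -79, which 1.65% of 35116 RefSeq windows of the same length hold. VGF also had 3 GC boxes and a TATA box, and CHGA 1 GC box. Of all windows, 42.6% held a GC box, 10.7% a TATA box, 14% the E-box and 6.57% the AP-1 site. The letters of the cAMP response element were not in the NPY, SCG5 or NPY2R windows, and the matches describe sequence only.

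NPY, the ligand, lies on chromosome 7 at 24284163-24291865 on the plus strand (GRCh38, GENCODE 29, protein coding like the other 9 genes). In wild type it ranged from 2.80 to 4.13 CPM with a median of 3.15, and averaged 3.27 ± 0.499 CPM (SD, n = 6). It stood at 74.9 (heavy) and 128 CPM (light) in line 1, 147 and 152 in line 2, with 24.5 and 20.3 in line 3. Every knockout library was above every wild-type library, and line 3 was below both other lines without overlap. The line means were 31.0 times the wild-type mean in line 1, 45.9 times in line 2 and 6.86 times in line 3. In bulk cultures, more cells making a transcript and more transcript in each cell cannot be told apart.

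NPY2R, the Y2 receptor gene, lies on chromosome 4 at 155208629-155217078 on the plus strand. It was low in wild type, with 15 to 22 counts per library, from 0.419 to 0.719 CPM with a median of 0.527 and a mean of 0.561 ± 0.119 CPM (SD, n = 6). It stood at 2.97 (heavy) and 5.24 CPM (light) in line 1, and at 8.46 and 10.3 in line 2, or 7.31 and 16.8 times the wild-type mean. Line 3 gave 0.399 CPM from 12 counts in heavy and 0.613 CPM from 23 counts in light medium, a range that overlapped wild type. The Y2 receptor was thus high in the 4 libraries of lines 1 and 2 and not in line 3, where the ligand was also above wild type. An antisense gene, AC104407.1, overlaps the first 399 bases of NPY2R and averaged 0.0458 CPM in wild type, 0.487 in line 1, 1.10 in line 2 and 0.0898 in line 3. The sources used here do not say whether the counting used strand, and reads in the shared bases cannot be told apart between the pair. Another gene, AC097467.3, spans NPY2R on the same strand over 8450 bases and averaged 0.0079 CPM over all libraries.

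The Y1 and Y5 receptor genes lie side by side on chromosome 4, NPY1R at 163323961-163344832 on the minus strand and NPY5R at 163343939-163351934 on the plus strand, and they share 894 bases. NPY1R had 2 counts in all, 1 in each of 2 wild-type libraries, and 0 in the 6 knockout libraries. NPY5R had 0 counts in all 12 libraries. A count of 0 allows up to 3 counts, which is 0.0745 to 0.116 CPM per library at these depths and covers counting error only. Of the other genes of the family, the ligand PPY and the Y4 receptor NPY4R also had 0 counts in all libraries, and the ligand PYY reached at most 4 counts (0.117 CPM) in any library.

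SCG5 lies on chromosome 15 at 32641676-32697098 on the plus strand. Wild-type libraries held 1.24 to 1.79 CPM with a median of 1.41 and a mean of 1.48 ± 0.243 CPM (SD, n = 6). The line values were 36.9 (heavy) and 60.0 CPM (light) in line 1, 31.6 and 34.5 in line 2, with 4.59 and 5.06 in line 3. No knockout library overlapped wild type, as for NPY, but line 1 rather than line 2 was highest. The line means were 32.8, 22.4 and 3.27 times the wild-type mean in lines 1, 2 and 3.

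The remaining granin genes were abundant in wild type and differed far less. CHGB (chromosome 20, 5911430-5925361, plus strand), which encodes chromogranin B, ranged from 194 to 232 CPM in wild type with a median of 202. It stood at 273 (heavy) and 330 CPM (light) in line 1, 362 and 343 in line 2, with 228 and 191 in line 3. Lines 1 and 2 were above wild type, at 1.45 and 1.70 times its mean, and line 3 lay across the wild-type range at 1.01 times. SCG2 (chromosome 2, 223596940-223602503, minus strand) encodes secretogranin II, the precursor of secretoneurin, and ranged from 73.1 to 83.5 CPM in wild type with a median of 75.5. It stood at 92.3 and 96.0 CPM in line 1, 108 and 102 in line 2, with 81.4 and 89.0 in line 3, which were 1.22, 1.36 and 1.10 times the wild-type mean. SCG3 (chromosome 15, 51681353-51721031, plus strand) encodes secretogranin III, which binds chromogranin A to the granule membrane, and it ranged from 182 to 202 CPM in wild type with a median of 191. Its values were 211 and 227 CPM in line 1, 241 and 244 in line 2, with 197 and 198 in line 3, or 1.14, 1.26 and 1.03 times the wild-type mean. All 3 genes were above the wild-type range in lines 1 and 2 and overlapped it in line 3.

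CHGA and VGF, the most abundant of the granin genes, were lower in line 2. CHGA (chromosome 14, 92923080-92935293, plus strand) encodes chromogranin A, and it ranged from 2217 to 2600 CPM in wild type with a median of 2522 and a mean of 2465 ± 148 CPM (SD, n = 6). It stood at 2222 (heavy) and 2119 CPM (light) in line 1, 1639 and 1713 in line 2, with 2425 and 2337 in line 3. Both libraries of line 2 were below wild type, at 0.680 times its mean, and lines 1 and 3 overlapped it, at 0.881 and 0.966 times. VGF (chromosome 7, 101162509-101165593, minus strand), a neurotrophin-inducible precursor of secreted peptides, ranged from 361 to 506 CPM in wild type with a median of 414. Its values were 327 and 271 CPM in line 1, 270.0 and 278 in line 2, with 392 and 411 in line 3. Lines 1 and 2 were below wild type at 0.709 and 0.651 times its mean, and line 3 lay inside its range at 0.953 times.

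**Figure D1:**
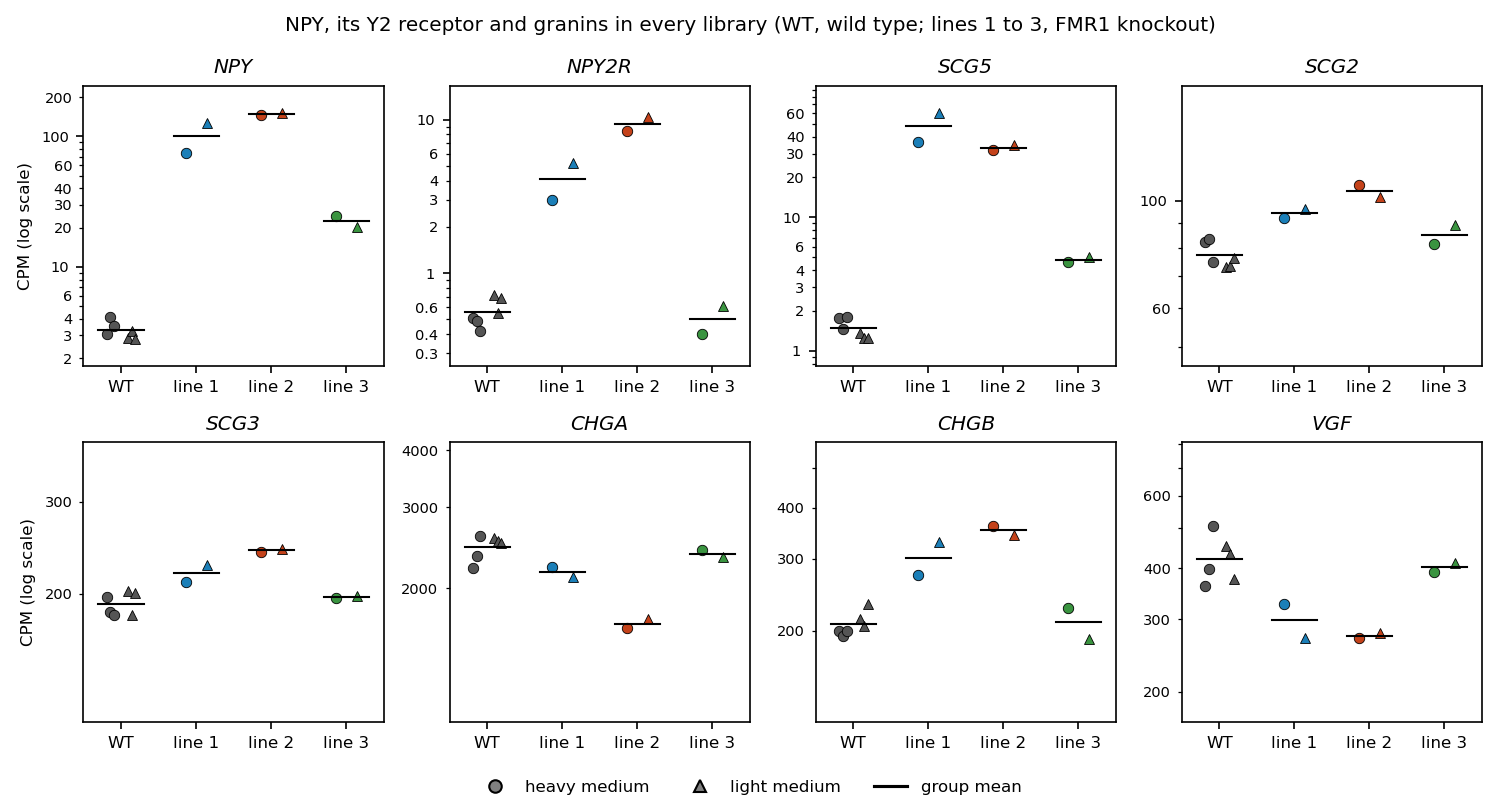
Levels of the 8 detected genes in every library, in CPM on log axes, for wild type (6 libraries) and knockout lines 1, 2 and 3 (2 libraries each). Circles are heavy and triangles light medium, and horizontal bars are group means. NPY and SCG5 lie above wild type in all 6 knockout libraries, NPY2R in the 4 libraries of lines 1 and 2, and the line means of the other 5 genes stay between 0.651 and 1.70 times the wild-type mean.

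Over all genes tested, edgeR's quasi-likelihood test with Benjamini-Hochberg adjustment called 27.9% of 17075 genes in line 1, 42.6% in line 2 and 5.03% in line 3 at an adjusted p under 0.05. Of all genes, 15.4% were called higher and 12.5% lower in line 1, and 22.6% and 20.1% in line 2. Among the 8 tested genes of the set, 6 were higher and 2 lower in line 1, and likewise in line 2. Since the set was picked on those contrasts, nothing is read from these counts. Both libraries of a line lay above the wild-type range for 19.6% of all genes in line 1, 26.1% in line 2 and 11.5% in line 3. They lay below it for 17.2%, 22.7% and 9.97%, and all 6 knockout libraries lay above it for 6.25% of genes, NPY and SCG5 among them, and below it for 4.11%.

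Line 3, whose libraries were not named in picking the set, was tested against wild type, although the wild-type libraries were shared with the picking. On the log2 scale NPY rose in line 3 by 2.77 (SE 0.212, edgeR adjusted p = 0.000124) and SCG5 by 1.70 (SE 0.191, edgeR adjusted p = 6.47e-05), each higher in 2 of 2 libraries. Both calls held when any 1 library was left out, with adjusted p at most 0.00409 for NPY and 0.00398 for SCG5. The other 6 genes did not pass. NPY2R differed by -0.13 (SE 0.260, edgeR adjusted p = 0.862), which at 12 and 23 counts leaves room for a modest change in either direction. SCG2 was at 0.14 (SE 0.0625), SCG3 at 0.04 (SE 0.0529), CHGB at 0.02 (SE 0.0789), CHGA at -0.05 (SE 0.0586) and VGF at -0.07 (SE 0.122), with edgeR adjusted p from 0.225 to 0.935. So 2 of 8 genes rose in line 3, where 3.18% of all genes were called higher and 1.85% lower. Both are among the genes for which the set was picked, so these shares are not a fair comparison. Nothing is read from that count. The number of genes called in line 3 depended on single libraries and ranged from 300 to 1282 with 1 library left out.

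**Figure D2:**
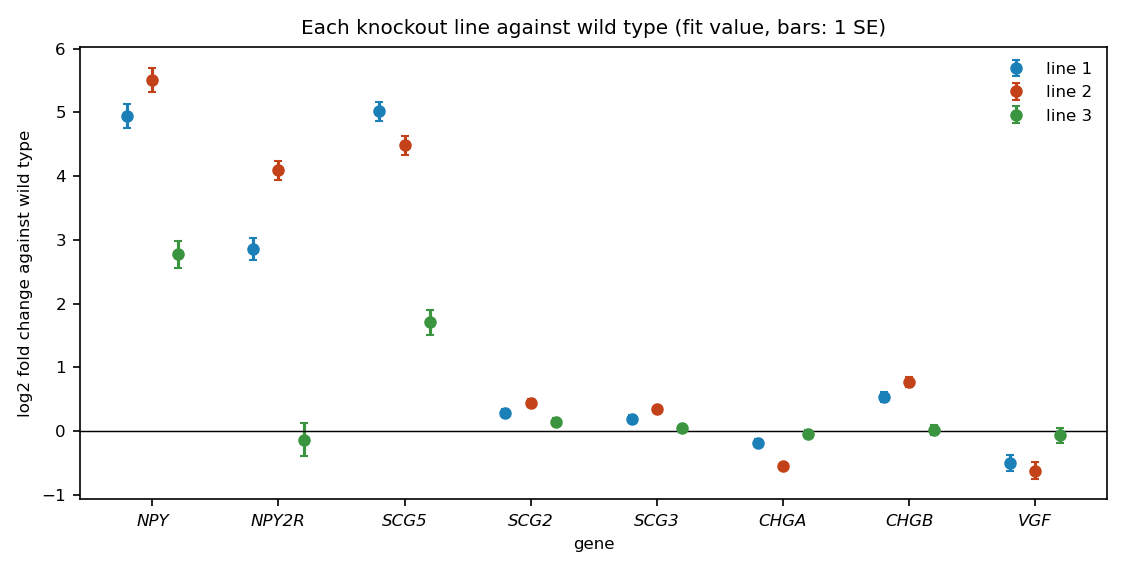
Fitted log2 fold change of each knockout line against wild type for the 8 tested genes, with bars of 1 SE. In line 3 NPY (2.77) and SCG5 (1.70) stand away from 0 and the other 6 genes lie between -0.13 and 0.14. Lines 1 and 2 chose the set and are shown as a description.

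Per kilobase of exon, which allows levels of different genes to be set side by side, the order in wild type was CHGA (794 CPM per kilobase), VGF (156), SCG3 (57.8), CHGB (45.7), SCG2 (28.4), NPY (3.55), SCG5 (0.673) and NPY2R (0.155). The ranges over the 6 wild-type libraries of neighbours in that order did not overlap. Line 3 kept this order, with NPY at 24.3 CPM per kilobase just under SCG2 at 31.3. In line 1 NPY reached 110.0 CPM per kilobase and overlapped VGF at 110.5, and in line 2 it stood at 163 CPM per kilobase, below CHGA at 540 and above VGF at 101. SCG5 stayed below SCG2 and above NPY2R in every group, at 22.0 CPM per kilobase in line 1, 15.1 in line 2 and 2.20 in line 3. Among 16731 genes ranked by CPM per kilobase, NPY was at place 8116 in wild type, 268 in line 1, 164 in line 2 and 1699 in line 3. SCG5 moved from place 12708 in wild type to 1866, 2855 and 9667. NPY made up 0.0808% to 0.128% of the summed CPM of the set in wild type, 2.31% to 3.95% in line 1, 5.25% to 5.30% in line 2 and 0.624% to 0.732% in line 3. The granin sum, which CHGA dominates, went from a mean of 3363 CPM in wild type to 3133 in line 1, 2682 in line 2 and 3279 in line 3.

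**Figure D3:**
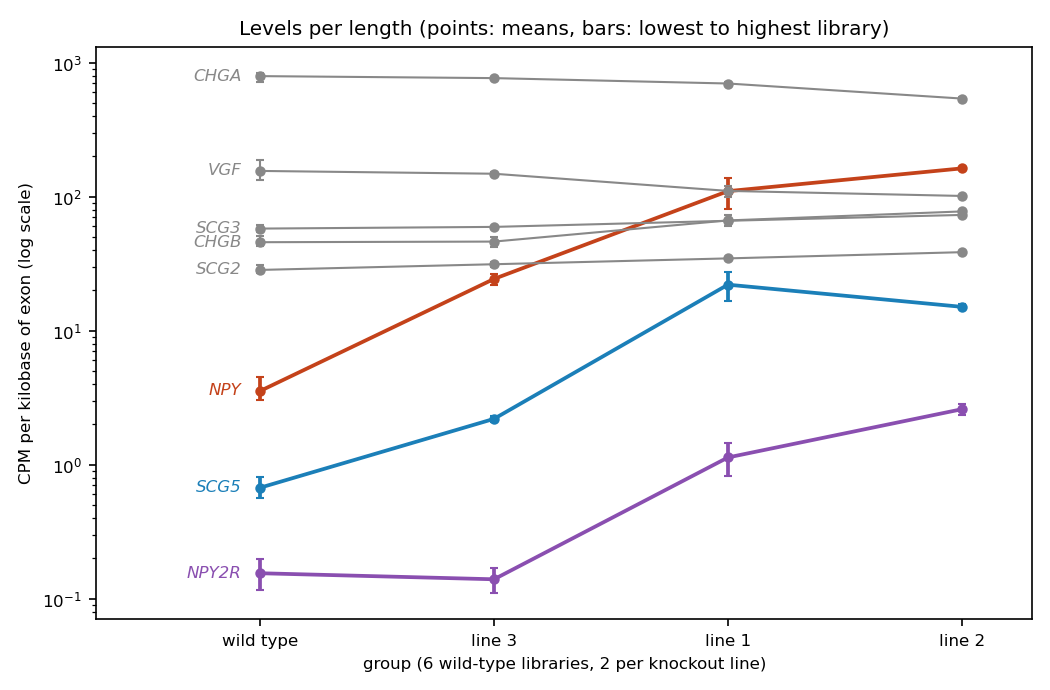
Mean level per kilobase of exon on a log axis for the 8 detected genes, with bars from the lowest to the highest library. Lines join the values of a gene and imply no course between groups. NPY climbs from 3.55 CPM per kilobase in wild type to 24.3 in line 3, 110.0 in line 1 and 163 in line 2, where it passes all granin genes but CHGA.

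For all tested genes of the set but SCG2, the heavy and light libraries of line 1 differed more than those of the other lines. NPY in heavy medium was 0.586 times its light value in line 1, against 0.967 in line 2 and 1.21 in line 3. For SCG5 these ratios were 0.614, 0.917 and 0.907. SCG2 was the exception, with ratios of 0.961, 1.06 and 0.914. The margin of line 1 was small for CHGA (1.05, 0.957 and 1.04) and CHGB (0.828, 1.05 and 1.19). FMR1 gave 1.97, 1.10 and 0.789. The heavy library of line 1 lay between the wild-type mean and the light library of line 1 for all 8 genes, at 57.5% of the way for NPY, 60.5% for SCG5, 51.5% for NPY2R, 53.7% for CHGB, 54.7% for SCG3, 62.8% for VGF, 70.3% for CHGA and 80.2% for SCG2. FMR1 lay at 58.2% of the way. Over 1220 genes with at least a 2-fold change in line 2 and in the light library of line 1, the median place was 51.5%, with quartiles of 41.6% and 60.2%. In line 1 the log2 fold change from wild type was 5.36 for NPY without its heavy library and 4.43 without its light library, and for SCG5 5.36 and 4.62.

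The choice of medium was not used in picking the set. Between heavy and light medium over all lines, with the line as a term, none of the 8 genes passed, and edgeR called 0 of 17075 genes (0%), with 1138 at an unadjusted p under 0.05 and 13 called by DESeq2. The lowest adjusted p was that of NPY2R, which was lower in heavy medium by a log2 value of -0.52 (SE 0.136, edgeR adjusted p = 0.494). Heavy over light ratios for NPY2R were 0.721 in wild type and 0.567, 0.818 and 0.651 in lines 1, 2 and 3. In wild type the 3 heavy libraries held 0.419 to 0.508 CPM and the 3 light libraries 0.546 to 0.719, so they did not overlap, yet the difference rests on 15 to 22 counts per library and did not pass. Differences for the other 7 genes lay between -0.18 (SCG5, SE 0.123) and 0.04 (SCG2, SE 0.0445). Within wild type none of the 8 genes passed either, with a lowest edgeR adjusted p of 0.961, and 0.00631% of 15845 genes did. The interaction of genotype and medium passed for 0 of 8 genes and 0 of 16704 genes in edgeR, with 149 at an unadjusted p under 0.05.

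Prohormone processing enzymes and helpers, a list that runs from convertases to carboxypeptidases and helpers, were called mostly upward in lines 1 and 2. Of 12 tested, 7 were higher and 1 lower in line 1, 8 higher and 1 lower in line 2, and 0 in line 3. Called higher over all genes were 15.4%, 22.6% and 3.18% in lines 1, 2 and 3, and called lower 12.5%, 20.1% and 1.85%. This list and those below were chosen with earlier results of these data known. The shares of all genes were not matched to the lists on level, so the comparisons are a description. The list medians were 0.22, 0.30 and 0.06 on the log2 scale, against all-gene medians of 0.00049, -0.00056 and -0.0010. CPE, the carboxypeptidase that trims cut peptides, rose from 78.3 ± 2.21 CPM in wild type (SD, n = 6) by 0.34 in line 1 and 0.44 in line 2 on the log2 scale (edgeR adjusted p = 9.63e-05 and 2.55e-06), and gave -0.03 in line 3. The convertases FURIN (0.34 and 0.34) and PCSK7 (0.24 and 0.31) and the carboxypeptidase-like AEBP1 (0.36 and 0.44) also rose in lines 1 and 2. Without the light library of line 1, 4 rather than 7 of the list were higher there, and without the heavy library of line 2, 5 rather than 8. FURIN and PCSK7 were among the calls lost, with edgeR adjusted p up to 0.213 and 0.435.

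PCSK2, the enzyme that SCG5 chaperones, was chosen for description after its values were seen. It had 1 count over the 6 wild-type libraries, 6 (heavy) and 16 (light) counts in line 1, 26 and 30 in line 2, with 0 and 1 in line 3. These were 0.175 and 0.453 CPM in line 1 and 0.729 and 1.16 CPM in line 2, so it appeared in the same 4 libraries in which SCG5 was highest while staying far below SCG5. PCSK1, the other neuroendocrine convertase, averaged 0.0873 CPM in wild type, and the highest line mean was 0.0894 in line 2. Single libraries reached 0.165 CPM in wild type and 0.140 in line 2.

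Genes of dense-core vesicle biogenesis and release, the longest of the lists by genes tested, were called mostly upward. Of 52 tested, 35 were higher and 1 lower in line 1, 39 higher and 1 lower in line 2, and 6 higher and 0 lower in line 3, which makes 69.2%, 76.9% and 11.5% called beside 27.9%, 42.6% and 5.03% of all genes (15.4%, 22.6% and 3.18% higher). The medians were 0.26, 0.41 and 0.12 on the log2 scale. SYT4, a vesicle synaptotagmin, rose in every line, by 0.55, 0.38 and 0.71 (edgeR adjusted p = 4.74e-06, 0.000121 and 1.48e-06), from 70.2 ± 3.74 CPM in wild type (SD, n = 6) to line means of 103, 91.7 and 115. SV2C, a vesicle membrane glycoprotein gene, rose by 0.49, 0.65 and 0.25, and its relative SV2A by 0.23 and 0.33 in lines 1 and 2. ARFIP2, a Golgi adaptor of vesicle formation, rose by 0.23, 0.23 and 0.24. The gene that fell in lines 1 and 2 was DBH, the vesicle enzyme that makes noradrenaline, by 0.76 and 1.26 on the log2 scale. It was named after its values were seen. With 1 library left out, the call of SYT4 held in every line, that of ARFIP2 was lost without the light library of line 1, the light library of line 2 and either library of line 3 in the line concerned (edgeR adjusted p up to 0.203), and that of SV2C in line 3 was lost without any 1 library but wild type heavy replicate 1 and those of line 1 (up to 0.593). Without the light library of line 1, 16 rather than 35 genes of the list were higher in line 1, and without the heavy library of line 3, 1 rather than 6 were higher in line 3. Over all knockout libraries, 30 of the list were higher and 1 lower beside 25.1% of 16404 genes called, and with counts summed to 1 value per line, 1 was higher.

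Other neuropeptide and hormone precursors were called at a share near that of all genes. Of 52 listed, 17 were tested, and 3 were higher and 3 lower in line 1, 4 higher and 3 lower in line 2, and 1 higher in line 3, with medians of 0.01, -0.04 and 0.07 on the log2 scale. These are 35.3%, 41.2% and 5.88% of the list, beside 27.9%, 42.6% and 5.03% of all genes, so the counts say nothing particular of the list. ADM2, the precursor of intermedin, rose from 2.36 ± 0.219 CPM in wild type (SD, n = 6) by 1.79 and 1.14 on the log2 scale in lines 1 and 2 and stood at 2.20 CPM in line 3. VIP and ADM, named after their values were seen, fell in lines 1 and 2: VIP, a co-transmitter of autonomic neurons, went from 10.4 CPM in wild type to 5.30 (heavy) and 0.397 (light) in line 1 and a mean of 1.28 in line 2, and ADM, the precursor of adrenomedullin, from 23.4 to 12.4 and 8.45. The libraries of line 1 thus lay far apart for VIP, with a log2 value of -4.60 without the heavy and -1.06 without the light library. The call of VIP was lost in line 1 without any 1 of the 6 wild-type libraries or either library of line 2 (edgeR adjusted p up to 0.0632) and in line 2 without its heavy library (0.0916).

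Among other peptide receptors and their partners, 20 of 51 were tested, and 9 were higher and 2 lower in line 1, 10 higher and 5 lower in line 2, and 5 higher and 1 lower in line 3. These are 55%, 75% and 30% of those tested, beside 27.9%, 42.6% and 5.03% of all genes. RAMP2 and RAMP3, which pair with the calcitonin receptor-like receptor to bind adrenomedullin, rose in all 3 lines. RAMP2 went from 4.15 ± 0.495 CPM in wild type (SD, n = 6) to 11.0, 13.0 and 7.42, and RAMP3 from 0.391 ± 0.133 to 2.68, 5.58 and 1.07. NPR2, the receptor of C-type natriuretic peptide, went from 6.58 to 16.0, 16.3 and 9.45 CPM, and OPRL1, the nociceptin receptor, from 6.09 to 8.15, 10.8 and 8.66 CPM, with edgeR adjusted p under the threshold in each line and 0.0358 for OPRL1 in line 3. With 1 library left out, RAMP2 kept its call in all 3 lines, while in line 3 RAMP3 lost its call without the light library of the line (edgeR adjusted p = 0.118) and NPR2 without either library of the line or wild type light replicate 3 (up to 0.237). OPRL1 lost its call in line 3 without the heavy library of the line (0.554), the light library of line 2, or wild type heavy 1, heavy 2, light 1 or light 3, and in line 1 without the light library of the line (0.521) or wild type heavy 1, heavy 2 or light 1. Without the light library of line 1, 5 rather than 9 were higher in line 1, and in line 3 the count of 5 fell to 3 without wild type light replicate 3 or without the heavy library of line 3, and to 2 without the light library of line 3.

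**Figure D4:**
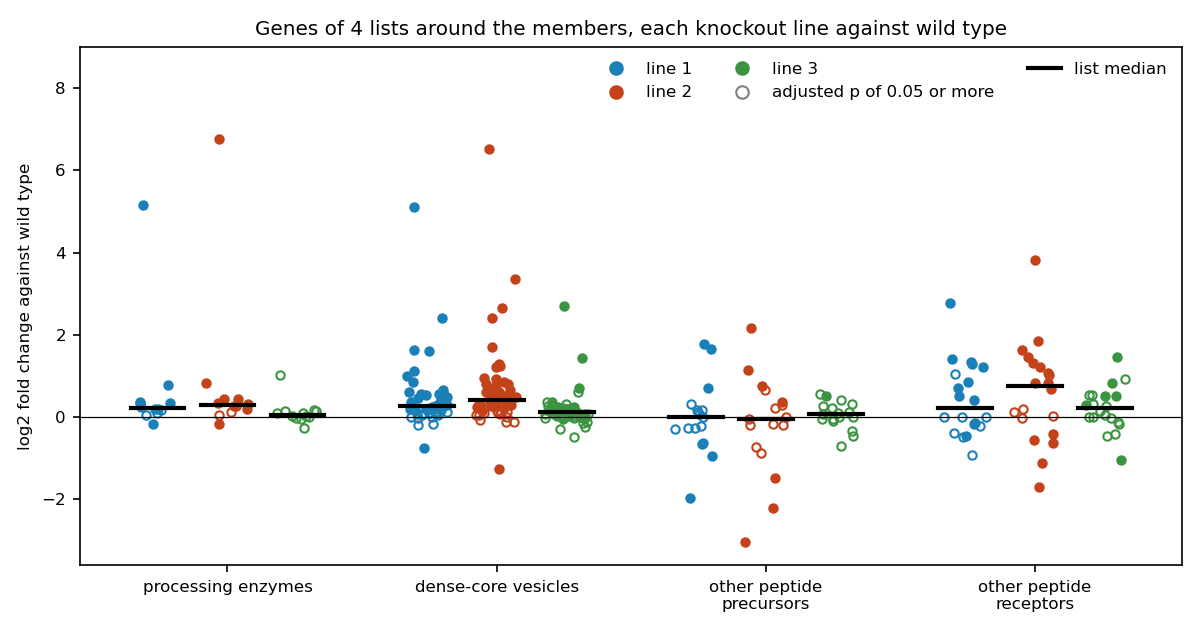
Fitted log2 fold change of each knockout line against wild type for the tested genes of 4 lists, filled where edgeR's adjusted p was under 0.05 and open otherwise, with bars at list medians. The medians of the dense-core vesicle list are 0.26, 0.41 and 0.12 in lines 1, 2 and 3, and those of the other precursors lie between -0.04 and 0.07.

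Peptidases that cut neuropeptide Y or like peptides were called in both directions. Of 20 tested, 8 were higher and 4 lower in line 1, 10 higher and 6 lower in line 2, and 3 higher and 1 lower in line 3. These are 60%, 80% and 20% of those tested, beside 27.9%, 42.6% and 5.03% of all genes. The counts include DPP10, a potassium channel partner of the dipeptidyl peptidase family, called lower in line 1 and higher in line 2. It was named after its values were seen. DPP4, the best known of those that convert neuropeptide Y to its Y2-preferring form, had 1 count in 12 libraries. XPNPEP2, a membrane aminopeptidase P, fell in every line, from 6.00 ± 0.641 CPM in wild type (SD, n = 6) to 1.92, 1.91 and 2.69. ACE, angiotensin-converting enzyme, rose from 5.73 ± 0.320 CPM to 31.7, 46.0 and 8.27, and ENPEP, aminopeptidase A, from 0.0753 to 4.08, 6.94 and 0.729. ANPEP, aminopeptidase N, rose from 2.72 to 4.57 and 4.33 CPM in lines 1 and 2. In line 3 the call of ENPEP held with any 1 library left out, and those of XPNPEP2 and ACE were lost without either library of that line (edgeR adjusted p up to 0.246 and 0.235). ANPEP lost its call without the light library of line 1 (0.0931) and without the heavy library of line 2 (0.174). Without the light library of line 1, 4 rather than 8 were higher in line 1, and without the heavy library of line 2, 6 rather than 10 in line 2.

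Of 23 tested transcription regulators described at granin and neuropeptide genes, 2 were higher and 4 lower in line 1, 5 higher and 5 lower in line 2, and 0 passed in line 3. The shares called in lines 1 and 2, 26.1% and 43.5%, were near the 27.9% and 42.6% of all genes, so the counts say nothing particular of the list. REST, a repressor of neuronal genes, granin genes among them, averaged 19.5 ± 2.28 CPM in wild type (SD, n = 6) and 15.2, 13.9 and 17.3 in lines 1, 2 and 3. It fell by 0.37 and 0.49 on the log2 scale in lines 1 and 2 (edgeR adjusted p = 0.0060 and 0.000364) and gave -0.17 in line 3 (adjusted p = 0.334). The call in line 1 was lost without its light library, at -0.28 (edgeR adjusted p = 0.195). INSM2, a zinc finger gene related to INSM1, went from 257 to 148 and 109 CPM in lines 1 and 2, CRTC1, a coactivator of CREB, from 27.1 to 37.7 and 36.0, and MYT1 from 48.3 to 57.2 and 60.0, all past the threshold in both lines. In line 1 INSM2 lost its call without either library of the line (edgeR adjusted p up to 0.111), and MYT1 without the light library (0.122).

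The nearest tested genes on either side of the most changed members did not share one pattern. Genes that did not pass the low-count filter, or shared a symbol with another gene, were passed over. FMN1, which lies 68.4 kb beyond SCG5, averaged 2.04 ± 0.261 CPM in wild type (SD, n = 6) and 11.5, 15.1 and 3.53 in lines 1, 2 and 3, a log2 change of 2.49, 2.90 and 0.79 (edgeR adjusted p in line 3 = 0.0372). The call in line 3 was lost without either of its libraries or any wild-type library but heavy replicate 1, with adjusted p up to 0.504. ARHGAP11A, 1.73 kb on the other side, gave -0.18, -0.10 and -0.03 and did not pass in any line. MAP9, 126 kb beyond NPY2R, rose by 0.81 and 1.41 in lines 1 and 2 and gave 0.21 in line 3. PLRG1, 658 kb on the other side, gave -0.03, -0.15 and 0.04 and did not pass in any line. The nearest tested genes to NPY are far off. MPP6 at 281 kb gave 0.08, 0.25 and 0.11, of which the value in line 2 passed. STK31 at 452 kb gave -0.40, -0.96 and -0.30, of which that in line 2 passed (edgeR adjusted p = 0.0486). Distances are between gene ends on GRCh38 in GENCODE 29.

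Over the 12 libraries, the genes whose log2 CPM followed NPY most closely were CSRP1 (Pearson r 0.994), TRIM14, PCBP3, PRPH and FAM20C. CSRP1 averaged 9.91 CPM in wild type and 47.6, 49.2 and 24.2 in lines 1, 2 and 3, and PRPH, the peripheral neuron filament peripherin, 0.206 and 6.57, 16.6 and 1.54. For SCG5 they were EGFR (r 0.992), ZNF185, SLC6A2, BOK and FAR2, and EGFR averaged 5.04 CPM in wild type and 93.7, 68.7 and 11.0 in the lines. For NPY2R they were ERICH3 (r 0.992), PRTFDC1, TIMP3, KCNMA1 and DOCK5, and ERICH3 averaged 8.91 CPM in wild type and 20.5, 28.3 and 8.38 in the lines. Such likeness was common: of 13626 genes ranked, 271 had r over 0.95 with NPY, 152 with SCG5 and 240 with NPY2R. The libraries fall into wild type and 3 lines, so the coefficients mostly describe 4 levels.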

How the data were processed

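Poly(A) RNA was read with a stranded TruSeq kit, per the labels' protocols, from 12 SH-SY5Y cultures in 4 groups of 3. The authors deposited 1 table of whole-number counts per gene. The submitters' processing notes name bcl2fastq 2.19.0, STAR 2.7.0f, featureCounts of Subread 1.6.4, DESeq2 1.22.1, R 3.5.1 and GRCh38.p13. The sources used here give no annotation release, strand setting or treatment of reads with several matches, and near-identical genes may share reads.

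From the counts, CPM with TMM factors and edgeR 4.0.16 quasi-likelihood tests (R 4.3.3, filterByExpr, Benjamini-Hochberg over all genes tested, threshold 0.05) were computed. Line tests used all 12 libraries with the line and the medium as factors, so a line of 2 libraries shares the spread of the rest. The test of medium over all lines came from the same model, that of medium in wild type used 6 libraries, and the pooled knockout test had genotype and medium. The code was tested on simulated counts. The alternatives were RLE factors, DESeq2 1.42.0, no filter, at least 1 CPM in at least 3 libraries, the replicate number as a block, counts summed per line, CPM without TMM factors, each library left out, and, added after seeing the data, medium without the line term. Genes named from the lists were up to 4 per list with the smallest p past the threshold in the pooled knockout test and a mean of at least 1 CPM; others are said to be chosen after their values were seen. Genes like a member were the 5 with the highest Pearson r of log2 CPM (prior count 2) among those with a mean of at least 1 CPM. The members and lists were chosen with earlier results of these data known. Promoter sequences are from RefSeq on GRCh38.p14 and gene positions from GENCODE 29, matched by symbol for 56414 genes.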

Additional observations from a re-analysis of the deposited data

Results flagged for a closer look

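Genes of the surrounding lists were searched for those past edgeR's threshold in at least 2 lines with opposite directions, with every library of each line on its own side of the wild-type mean. There were 4, and the difference between the lines was not tested in any of them, since all lines were set against the same wild-type libraries. The share of all genes that meet this rule was not computed, so nothing is read from the count of 4. DPP10, a potassium channel partner of the dipeptidyl peptidase family, had a log2 value of -1.96 in line 1 and 1.61 in line 2, and averaged 9.17 CPM in wild type and 28.2 in line 2. Its libraries of line 1 lay far apart, at 4.57 (heavy) and 0.312 CPM (light), so the size of its value there depends on which is used. GAL, the galanin precursor, had -0.64 in line 1 and 0.52 in line 3. OPRM1, the mu opioid receptor, had -0.47 in line 1, -0.63 in line 2 and 0.30 in line 3. PRLHR, the receptor of prolactin-releasing peptide, had 1.22 in line 2 and -1.04 in line 3. Among the members, a single library far from the others was searched for in 17 sets of 6 libraries of 1 genotype. The search found 0, where chance gives about 1 in 20 in sets of like libraries. The knockout sets span 3 lines that differ, which widens the range that a gap is set against. A library could hardly be flagged there, so nothing is read from the 0. The search did not address the difference between the heavy and light libraries of line 1.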

How the results depend on the processing

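The directions of NPY, SCG5, NPY2R, SCG2, SCG3, CHGB, CHGA and VGF in lines 1 and 2 were the same under every alternative run on the line tests, and the line 3 calls of NPY and SCG5 held under those, the replicate block included (log2 2.81 and 1.64, adjusted p 0.0159 and 0.00819). With the replicate block the line 3 calls of ENPEP (adjusted p 0.0540), ARFIP2, RAMP3, FMN1, XPNPEP2, ACE, SV2C, NPR2 and OPRL1 (0.351) were lost, as were those of VIP in line 1 (0.128) and ARFIP2 in line 2 (0.0662). In line 1, 4763 genes were called (1538 to 4935 with 1 library left out), in line 2 7280 (4220 to 7565), in line 3 859 (300 to 1282) and over all knockout libraries 4113 (2616 to 5890), with 272 on counts summed per line. In line 3, 1387 were called without the filter (53.1% of them higher, against 63.2%) and 301 with the replicate block. For medium over all lines the count was 0, but 1 with RLE factors, 13 with DESeq2, 219 without the filter, 1 with the replicate block and 0 to 1 with 1 library left out. For medium in wild type it was 1, but 9 with DESeq2, 39 without the filter (82.1% of them higher, against 100%), 9 with the replicate block and 0 to 8 with 1 library left out. Small values changed sign: CHGB in line 3 went to -0.0385 with the replicate block and ranged from -0.18 to 0.20 with 1 library left out, and CHGA there from -0.11 to 0.0033. For medium over all lines NPY went to 0.0200 with DESeq2 and ranged from -0.18 to 0.16 with 1 library left out, SCG5 from -0.232 to 0.0427 and VGF from -0.0380 to 0.0745. For medium in wild type VGF went to -0.00691 with the replicate block and ranged from -0.15 to 0.10. The replicate numbers were not taken to pair wild-type libraries with each other or with knockout libraries. The deviations from group means of same-numbered wild-type and knockout libraries correlated at -0.193 to -0.0243. For same-numbered wild-type heavy and light libraries these values were -0.118 to 0.125. In the knockout libraries the number was taken as the line. Their same-numbered heavy and light libraries gave 0.0470, 0.755 and 0.763 in lines 1, 2 and 3. In log2 CPM the heavy library of line 1 correlated at 0.983 with its light partner and 0.990 with the light library of line 3. The light library of line 1 correlated at 0.990 with each library of line 2. The causes were not tested. NPY2R in wild type and line 3 and both other receptors are limited by depth.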
